A study of Homo sapiens with 3 samples.

Results

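Human selenoproteins carry selenocysteine at 1 or more UGA codons, which are decoded instead of ending translation. Their coding sequences end at a separate, ordinary stop codon. A set of 10 selenoprotein genes was taken by gene name: SELENOH, SELENOF, SELENOT, SELENOK, SELENOS, SELENOW, SELENOI, SEPHS2, TXNRD1 and GPX1. Of these, 6 were listed in all 3 libraries, among 8812 transcripts listed in all 3, and they are SELENOF, SELENOH, SELENOK, SELENOT, SELENOW and SEPHS2. SELENOS, SELENOI, TXNRD1 and GPX1 were listed in no library and are not analysed here. The paper discarded transcripts that overlapped neighbouring transcripts or had UTRs over pseudogenes, so absence does not show a low ribosome density.

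HEK293T cells, a transformed line of human embryonic kidney origin expressing SV40 large T antigen, were studied by ribosome profiling, which sequences the mRNA fragments protected by ribosomes. Untreated A and Untreated B (0 µg/mL) form a group of 2 libraries, and G418 A comes from cells given 500 µg/mL of G418 for 24 h. G418 is an aminoglycoside antibiotic that binds the decoding centre of the ribosome and promotes stop codon readthrough. The G418 condition had 1 library, so its values have no replicate check, and the study calls its ribosome profiling replicates biological, although the labels of these libraries name no separate cultures.

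Selenocysteine is inserted at UGA by a dedicated tRNA, the elongation factor EEFSEC and the protein SECISBP2, which binds a stem-loop in the 3′UTR called the SECIS element. The element must be present for UGA to be decoded as selenocysteine, and without it the same codon normally ends translation. Most members are small redox proteins of the endoplasmic reticulum (ER), nucleus or cytosol, in which selenocysteine stands in or near the reactive site. SEPHS2 makes selenophosphate, the selenium donor for selenocysteine, and is itself a selenoprotein.

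The selenocysteine codons are shown with 12 nt on each side, because the bases around a UGA are known to affect how it is decoded. Sequences are those of GENCODE version 44 transcripts on hg38, 5′ to 3′ with T for U, and capitals mark the UGA.
SELENOF: gaagtttgtggaTGAaaattgggaagg
SELENOH: cattgcactagcTGAcgcgtctatggg
SELENOK: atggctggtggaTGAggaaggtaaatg
SELENOT: atttgtgtttccTGAggttataggcgg
SELENOW: tattgtggcgctTGAggctacaagtcc
SEPHS2: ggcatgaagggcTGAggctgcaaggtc

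The base after the UGA was G in SELENOK, SELENOT, SELENOW and SEPHS2, A in SELENOF and C in SELENOH. The codon lies at chr1:86880690-86880692 on the minus strand in exon 3 of SELENOF, at chr11:57741816-57741818 on the plus strand in exon 2 of SELENOH, and at chr3:53885831-53885833 on the minus strand in exon 4 of SELENOK. It lies at chr3:150622392-150622394 on the plus strand in exon 2 of SELENOT, at chr19:47780732-47780734 on the plus strand in exon 2 of SELENOW, and at chr16:30445548-30445550 on the minus strand in the only exon of SEPHS2. All of these positions are coding exon sequence.

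The final stop codons are shown in the same way, since readthrough was measured from them, and here capitals mark the stop codon.
SELENOF: ttggaacgcataTAAatcttgcttaaa
SELENOH: aagtacctgtcgTAGggagatttgggt
SELENOK: ggatgaggaaggTAAatgtctgctcta
SELENOT: caccatcgatcaTAGcaccacctatca
SELENOW: ttggctcagggcTAAtgcgccctgaag
SEPHS2: gagcctagctcgTGAgatgaaagaaca

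The final stop was UAA in 3 members (SELENOF, SELENOK, SELENOW), UAG in 2 (SELENOH, SELENOT) and UGA in SEPHS2. Among the 5684 transcripts with a mean of at least 128 coding sequence (CDS) reads, 1706 ended at UAA, 1199 at UAG and 2779, or 48.9%, at UGA. SEPHS2 had the same 4-nt signal, UGAG, at its selenocysteine codon and at its final stop. The stop codons lie at chr1:86863474-86863476 (SELENOF), chr11:57742215-57742217 (SELENOH), chr3:53885558-53885560 (SELENOK), chr3:150627132-150627134 (SELENOT), chr19:47781368-47781370 (SELENOW) and chr16:30444381-30444383 (SEPHS2). Each marks the border of the CDS and the 3′UTR and lies in the last exon, except in SELENOT and SELENOW, where it lies in exon 5 of 6.

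The selenocysteine codon sits near the start of SELENOW, at codon 13 of 87, of SEPHS2, at codon 60 of 448, and of SELENOT, at codon 49 of 195. It is codon 44 of 122 in SELENOH and codon 96 of 165 in SELENOF. In SELENOK it is codon 92 of 94, so that the sequence printed for it already contains the final UAA. CDS reads were counted without the first 18 nt and the last 15 nt, which put the selenocysteine codon of SELENOK outside the counted part, while 41.9% of the counted nucleotides lay after the codon in SELENOF, 66.1% in SELENOH, 76.8% in SELENOT, 87.7% in SEPHS2 and 90.9% in SELENOW. A single sum was available for each CDS, so ribosomes before, at and after the selenocysteine codon could not be counted apart. The efficiency of UGA recoding itself was not measured.

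**Figure D1:**
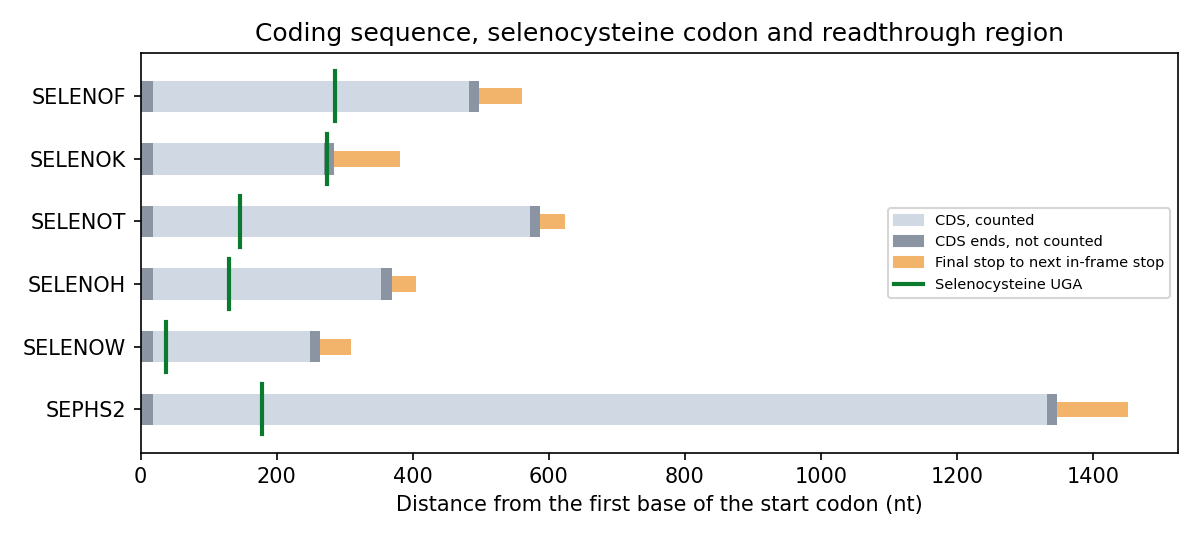
Map of the 6 listed transcripts, with 1 row per member and distance from the first base of the start codon in nt on the horizontal axis. Pale bars are the counted CDS, dark ends the parts of the CDS that were not counted, orange bars the stretch from the final stop to the next in-frame stop, and a green line the selenocysteine codon, which falls in the uncounted end of SELENOK.

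The depths behind the normalized values were 5857230 reads (Untreated A), 9477972 (Untreated B) and 7216039 (G418 A). Of 8 genes chosen as HEK293T markers, 6 were listed in all 3 libraries, and of 8 markers of liver, blood, fibroblast, erythroid and islet cells, 6 were listed in none. The exceptions among the latter were COL1A1, listed in all 3 libraries at 7.98 to 10.7 RPKM (reads per kilobase of region, scaled to a common read total), and COL3A1, listed in Untreated B alone at 1.01 RPKM. Of the HEK293T markers, HOXA9 was listed in no library and PAX2 in Untreated B alone at 1.28 RPKM. The HEK293T marker LHX1 had 7.37 to 8.40 RPKM, near the values of COL1A1.

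Ribosome density on the CDS was higher in G418 A than in both untreated libraries for 5 of the 6 members, where 47.3% of all listed transcripts did the same. The edgeR quasi-likelihood test, adjusted over all 8812 transcripts, called SELENOT and SELENOW higher with G418 and called no member lower, either by the adjusted p or by an unadjusted p under 0.05. The unadjusted p was under 0.05 for 4 members, all higher, in edgeR and for 2, both higher, in DESeq2, which called 0 after adjustment. Over all transcripts an unadjusted p under 0.05 was found for 10.3% higher and 2.69% lower in edgeR and for 2.72% higher and 2.47% lower in DESeq2. After adjustment edgeR called 2.12% of all transcripts higher and 0.352% lower.

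SELENOW, a small cytosolic redox protein, had the lowest CDS density of the members in Untreated B and the largest change. Untreated A had 36.2 RPKM, Untreated B 17.4 and G418 A 85.2, from 49, 38 and 142 reads. The untreated libraries differed by 2.09-fold, more than for any other member, and G418 A lay above both. The fitted log2 change was 1.71 (SE 0.446), with an edgeR adjusted p of 0.0119. The edgeR prior degrees of freedom were infinite, so the spread was taken from all transcripts. The gap between the untreated libraries of SELENOW therefore did not enter this SE or p. The log2 change was 1.23 without Untreated B and 2.29 without Untreated A, values with no test.

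The untreated densities of SELENOT, a redox protein of the ER membrane, were 64.6 RPKM (A) and 56.8 (B), and the G418 density was 111, from 210, 299 and 446 reads. The untreated libraries were 1.14-fold apart and the G418 value was 1.83 times their mean of 60.7 ± 5.49 (SD, n = 2). The log2 change was 0.88 (SE 0.249), with an edgeR adjusted p of 0.0271. With TMM scaling the change was 0.78 and the adjusted p was 0.0739, and with DESeq2 it was 0.77 and 0.486, so the call for SELENOT ended under both. SELENOW kept an adjusted p of 0.0157 with TMM scaling, while DESeq2 gave it no adjusted p.

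SELENOF and SELENOK are ER proteins, the first a partner of the glycoprotein folding sensor UGGT1 and the second a membrane protein linked to ER-associated degradation. SELENOF had the highest density of the members, at 482 RPKM with G418 against 442 (Untreated A) and 303 (Untreated B). The untreated libraries were 1.46-fold apart, and the G418 value was nearer to Untreated A than Untreated B was. Its log2 change of 0.38 (SE 0.168) had an edgeR adjusted p of 0.281, and was 0.13 without Untreated B and 0.67 without Untreated A. SELENOK stood at 184, 126 and 241 RPKM in Untreated A, Untreated B and G418 A. Its log2 change of 0.65 (SE 0.244) had an edgeR adjusted p of 0.162 and did not pass, and the leave-out values were 0.39 and 0.93.

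SELENOH, a nucleolar protein with a thioredoxin fold, was the member that did not lie above both untreated libraries. Untreated A gave 164 RPKM, Untreated B 181 and G418 A 167. The G418 value fell between the untreated ones, and the log2 change was -0.05 (SE 0.227, edgeR adjusted p = 0.960). The counted CDS of SELENOH includes the selenocysteine codon. For this mRNA the paper reports a ribosome peak at that codon, which G418 lowered while density downstream rose. A single CDS sum cannot show such changes apart, so an unchanged sum does not show an unchanged distribution. It was 0.02 without Untreated B and -0.12 without Untreated A.

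For SEPHS2, Untreated A had 30.1 RPKM, Untreated B 35.7 and G418 A 41.6, on 232, 445 and 394 reads. The G418 value was the highest, but the log2 change of 0.33 (SE 0.244, edgeR adjusted p = 0.647) did not pass, and it was 0.46 without Untreated B and 0.22 without Untreated A.

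The median log2 change of the 6 members was 0.51, against 0.10 over all listed transcripts, and it was 0.43 without Untreated B and 0.80 without Untreated A. The same members had a median of -0.36 between the untreated libraries (Untreated B over Untreated A), against 0.07 over all transcripts. SELENOF, SELENOK, SELENOT and SELENOW were each lower in Untreated B than in Untreated A. Fitted changes were above 0 for 5 of 6 members and for 61.1% of all transcripts. Changes in mRNA amount and in translation cannot be told apart, since no RNA-seq was analysed here.

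**Figure D2:**
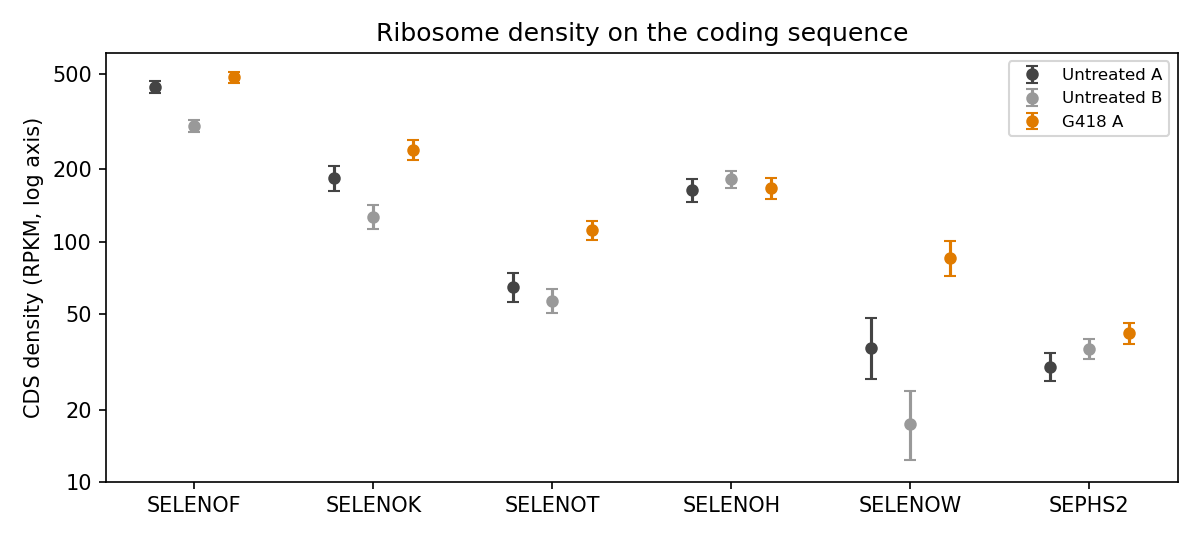
CDS ribosome density (RPKM, log axis) of the 6 listed members, with 1 point for each library and bars for the exact 95% Poisson interval of its reads. SELENOF is the highest, and the G418 points of SELENOT and SELENOW lie above both untreated points.

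**Figure D3:**
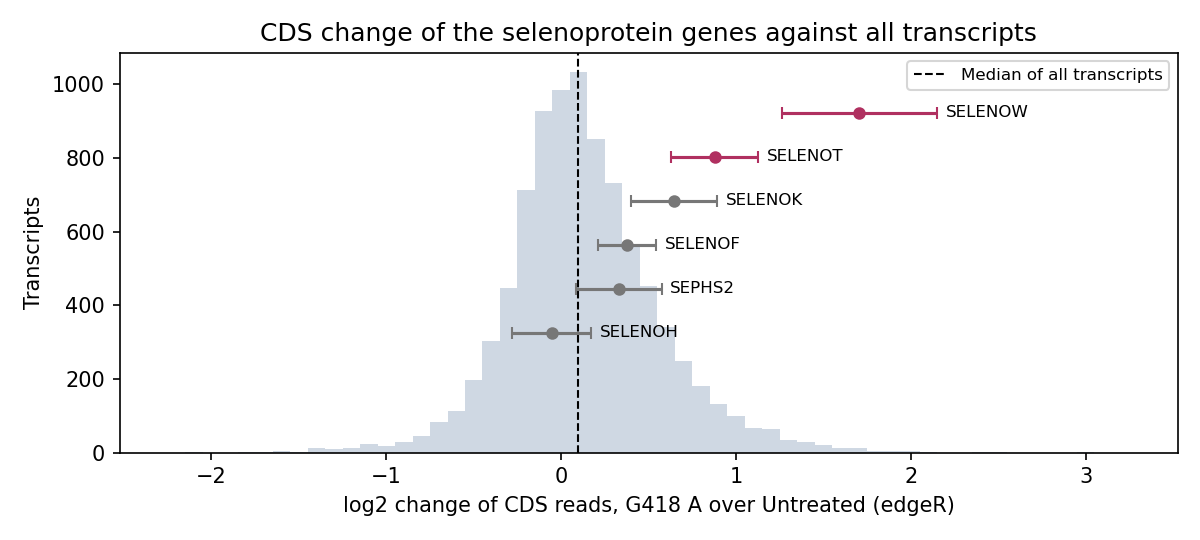
Histogram of the fitted log2 change in CDS reads, G418 over untreated, for all 8812 transcripts (vertical axis, number of transcripts), with the 6 members drawn over it at heights that carry no value, bars for the SE derived from the edgeR F statistic and red for those that passed the edgeR test. SELENOW (1.71) and SELENOT (0.88) lie furthest right of the dashed median of all transcripts, and SELENOH lies left of it.

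Ribosomes upstream of the start codon were measured as the share of a transcript's reads in the 5′UTR. SEPHS2 had the most of the members in each library, with 76 (Untreated A), 147 (Untreated B) and 53 (G418 A) reads there. These were 24.4%, 23.8% and 11.2% of its reads, so the G418 share was below both untreated shares, which lay close together. The 5′UTR counted for SEPHS2 was 448 nt long, while the newer annotation gives 147 nt. SELENOH followed the same order with 15, 11 and 2 reads (4.40%, 1.86% and 0.484%). SELENOW had 4, 7 and 4 reads, and SELENOT 3, 1 and 1. SELENOF had 6 reads in G418 A and none in the untreated libraries, and SELENOK had none in any library. The G418 share was below both untreated shares in 4 of 6 members (SEPHS2, SELENOH, SELENOW and SELENOT), against 25.7% of all transcripts. For SELENOT this rested on 1 read each in Untreated B and G418 A. For SELENOW the lower share went largely with its CDS reads, which were 49, 38 and 142. A transcript with no 5′UTR read in an untreated library, such as SELENOF or SELENOK, could not be counted as below. The members were not tested against all transcripts.

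Readthrough at the final stop was measured with the ribosome readthrough score (RRTS), the read density from the stop codon to the next in-frame stop divided by the CDS density, with the first 6 nt after the stop left out. For the members that CDS density includes ribosomes before the selenocysteine codon, and in SELENOK only those. It need not equal the density that reached the final stop. This limits RRTS and 3′UTR occupancy of the members, between conditions and against other transcripts. In G418 A, reads past the final stop were found on 5 of the 6 members, all but SELENOW. In the untreated libraries reads were seen on 3 members each, SELENOF, SELENOH and SEPHS2 in Untreated A and SELENOH, SELENOK and SEPHS2 in Untreated B. At least 1 such read was found on 63.4% of the 8812 listed transcripts in G418 A, against 17.9% (Untreated A) and 17.0% (Untreated B), and on 75.8%, 24.0% and 22.3% of the 5684 transcripts with enough CDS reads. The RRTS of G418 A exceeded both untreated values in 5 of 6 members, in 59.8% of listed transcripts and in 71.9% of those with enough CDS reads. These comparisons rest on 1 G418 library and were not tested between conditions. The intervals given are exact 95% Poisson intervals and cover counting error only.

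SELENOK and SELENOF, both ending at UAAA, had the most G418 readthrough reads with 41 each. SELENOK had no readthrough read in Untreated A (interval up to 3.81%), an RRTS of 1.85% in Untreated B (2 reads, interval 0.225 to 6.70%) and 26.2% with G418 (18.8 to 35.6%). The G418 interval lay above both untreated intervals. SELENOF had 1.36% in Untreated A (2 reads, 0.164 to 4.90%), 0 reads in Untreated B (up to 2.25%) and 20.7% with G418 (14.8 to 28.1%), where again the G418 interval lay above the others. Transcripts with the UAAA signal had a median G418 RRTS of 7.69%, and of 662 such transcripts 182 were above SELENOF and 147 above SELENOK.

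SELENOT, which ends at UAGC, had 0 readthrough reads in each untreated library (intervals up to 32.5% and 22.8%) and 8 with G418, an RRTS of 33.2% (14.3 to 65.4%). The intervals overlapped. The median of its signal in G418 A was 18.7%, and 108 of 342 transcripts with that signal were higher. SELENOH, which ends at UAGG, had an RRTS of 6.93% (Untreated A), 3.88% (Untreated B) and 19.4% (G418 A), from 2, 2 and 7 reads. Its G418 interval, 7.80 to 39.98%, overlapped both untreated ones.

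SELENOW had no readthrough read in any library. With so few expected reads the intervals reached 44.6% (Untreated A), 57.5% (Untreated B) and 15.4% (G418 A). That last bound lay above the median of its signal, UAAU, which was 11.6% in the same library.

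SEPHS2 had the highest RRTS of the members in every library, including the untreated ones. Untreated A had 22.9% (4 reads, 6.24 to 58.6%), Untreated B 80.5% (27 reads, 53.1 to 117%) and G418 A 91.0% (27 reads, 59.9 to 132%). The G418 interval overlapped that of Untreated B and lay just above that of Untreated A. Among the 5684 transcripts with enough CDS reads, the share with a higher RRTS than SEPHS2 was 3.84% (Untreated A), 0.598% (Untreated B) and 8.66% (G418 A). Of the 1054 transcripts with its signal UGAG, 28, 8 and 76 were higher in Untreated A, Untreated B and G418 A, and the median was 0 in both untreated libraries and 19.9% in G418 A.

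**Figure D4:**
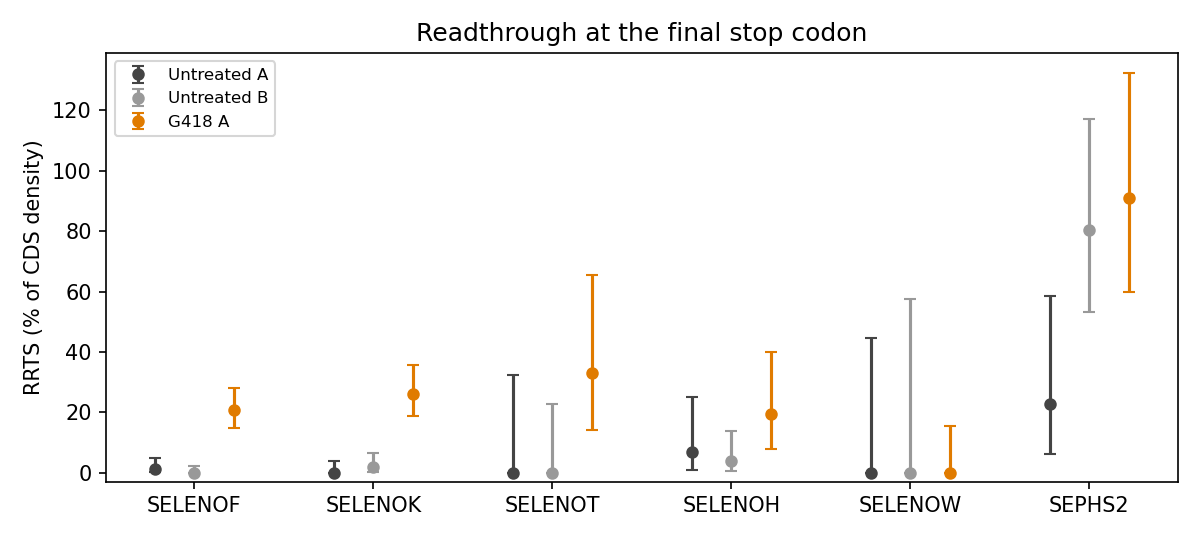
Readthrough (RRTS, % of CDS density) at the final stop of the 6 members in each library, with exact 95% Poisson intervals. Values of G418 A exceed the untreated ones in SELENOF, SELENOK, SELENOT and SELENOH, SELENOW is at 0 in all, and SEPHS2 is high in Untreated B as well.

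Pooled over the 5 members with enough CDS reads (all but SELENOW), Untreated A had an RRTS of 2.65% (1.14 to 5.22%), Untreated B 8.32% (5.65 to 11.8%) and G418 A 27.9% (23.2 to 33.3%). The G418 value was 5.09 times the untreated mean of 5.48 ± 4.01% (SD, n = 2). SEPHS2 supplied 27 of the 31 pooled reads of Untreated B, and without SEPHS2, an alternative chosen after seeing the data, the values were 1.41%, 1.18% and 23.4%, an 18.1-fold difference. With SEPHS2 included, the fold was 10.5 without Untreated B and 3.35 without Untreated A. Pooling the 5684 transcripts gave 21.3% with G418, against 1.57% (Untreated A) and 1.25% (Untreated B).

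The 3′UTR carries the SECIS element, and reads over its whole length were compared with the CDS. Occupancy of the 3′UTR was higher in G418 A than in both untreated libraries in all 6 listed members, and in 67.6% of listed transcripts, with no test between conditions. SELENOF had 12 (Untreated A), 11 (Untreated B) and 58 (G418 A) reads there, and SELENOK had 1, 3 and 47. SELENOF occupancy was 0.453%, 0.375% and 1.63% of its CDS density, and SELENOK occupancy was 0.0819%, 0.221% and 2.38%. SELENOT, with a 3′UTR of 2801 counted nt, had 0, 1 and 20 reads, or 0%, 0.0663% and 0.889%. SELENOH had 3, 2 and 7 reads, or 0.719%, 0.268% and 1.34%. SELENOW had 0 reads in each untreated library, with intervals up to 10.2% and 13.1%, and 2 with G418 (1.90%), so a difference was not detectable at this depth. SEPHS2 had 4, 27 and 27 reads, or 3.05%, 10.7% and 12.1%.

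Where in the 3′UTR the reads lay differed between members. In G418 A all 27 SEPHS2 reads and all 7 SELENOH reads were before the next in-frame stop, as were 87.2% of the SELENOK reads and 70.7% of the SELENOF reads. For SELENOT the share was 40%, with 12 reads further downstream, and both SELENOW reads were downstream. Across the 6 members, the stretch before the next in-frame stop made up 5.47% of the counted 3′UTR and held 8 of 20 3′UTR reads (40%) in Untreated A, 31 of 44 (70.5%) in Untreated B and 124 of 161 (77.0%) with G418. Over the 5684 transcripts the shares were 41.4%, 40.3% and 66.3%. In Untreated B, 27 of the 31 reads were those of SEPHS2.

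Past the next in-frame stop, SELENOF had 10 (Untreated A), 11 (Untreated B) and 17 (G418 A) reads, and an occupancy of 0.400%, 0.397% and 0.506%. These were 10 of the 12 reads found there over all members in Untreated A and 11 of 13 in Untreated B. SELENOK had 1, 1 and 6 reads, and SELENOT 0, 1 and 12. SEPHS2 had none in any library, with intervals up to 3.24%, 1.69% and 1.91% of its CDS density. The density there was higher in G418 A than in both untreated libraries in 4 of 6 members (SELENOF, SELENOK, SELENOT, SELENOW), against 45.4% of transcripts with such a region. In each of these 4 members the G418 interval overlapped both untreated intervals.

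**Figure D5:**
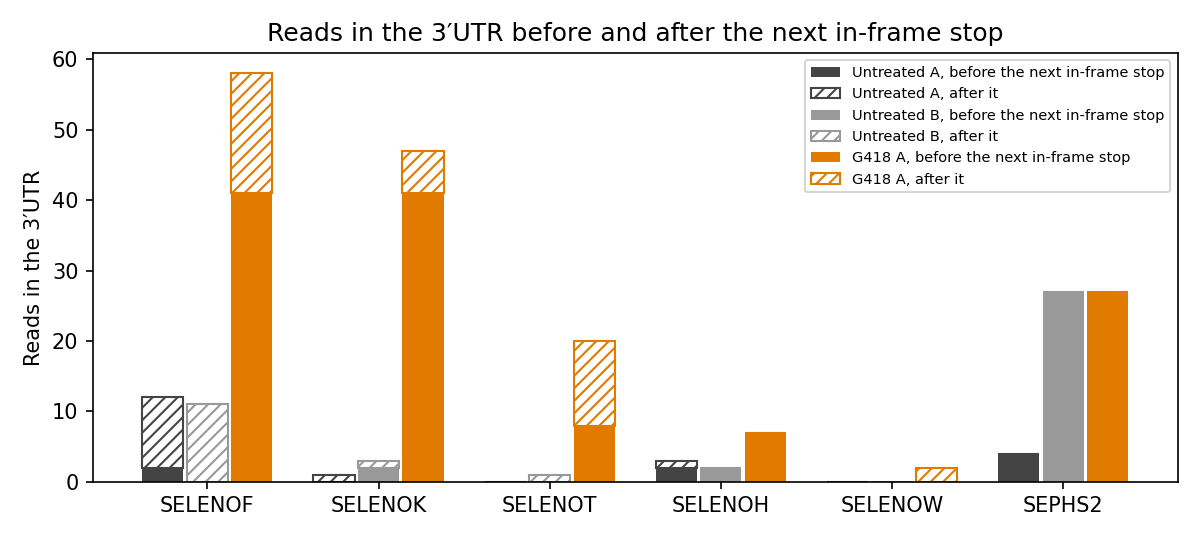
Reads in the 3′UTR of the 6 members (vertical axis, read numbers not scaled for depth), with 1 bar for each library, filled for reads before the next in-frame stop and hatched for reads after it. Filled parts make up most of the G418 bars of SELENOF, SELENOK and SEPHS2, and SEPHS2 has as many reads in Untreated B as with G418 (27).

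Other genes of selenium biology were taken from lists written from general knowledge. Of all transcripts, edgeR gave 10.3% an unadjusted p under 0.05 in the higher direction and 2.69% in the lower. Of 15 other selenoproteins, 7 were listed, and none passed the edgeR test in either direction, while 1 had an unadjusted p under 0.05, higher, in edgeR and 0 in DESeq2. Their median log2 change was 0.22. SELENOM, an ER selenoprotein, had the largest, 1.19 from 23, 32 and 60 CDS reads, with an adjusted p of 0.327. GPX3, a secreted glutathione peroxidase, stood at 0.69 (adjusted p = 0.491), SELENOP, the plasma selenium carrier, at 0.24 (0.809), TXNRD2, the mitochondrial thioredoxin reductase, at 0.22 (0.837), SELENOO at 0.22 (0.879), SELENON at 0.15 (0.908) and MSRB1, a methionine sulfoxide reductase, at -0.18 (0.920).

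The list of selenocysteine machinery held 16 names, of which 13 were listed. SARS (listed) and SARS1 (not listed) are names of the same gene. None of the 13 passed in either direction (unadjusted p under 0.05 for 1 gene, higher, in edgeR and 0 in DESeq2), with a median log2 change of 0.04. The thioredoxin and glutathione system had 17 of 25 genes listed, 1 higher and none lower in edgeR, with a median of 0.03. At an unadjusted p under 0.05 the counts were 3 higher and 1 lower in edgeR, and 1 and 2 in DESeq2, where 2.72% and 2.47% of all transcripts did so. The gene called was GLRX5, a mitochondrial glutaredoxin of iron-sulfur cluster assembly, at 33.7, 42.1 and 81.1 RPKM in Untreated A, Untreated B and G418 A (log2 change 1.09, SE 0.316, edgeR adjusted p = 0.0308). With TMM scaling its adjusted p was 0.0555, above the threshold of 0.05. Among 13 ER partners of SELENOF, SELENOK and SELENOS, 10 were listed and none passed in either direction (unadjusted p under 0.05 for 1 gene, lower, in edgeR and likewise 1 in DESeq2), with a median of 0.30.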

How the data were processed

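The 3 ribosome profiling libraries were sequenced and processed by the authors, who aligned reads with STAR to hg38 (GENCODE version 30 in the methods) and assigned fragments of 28 to 35 nt to 1 transcript per gene. The authors deposited RPM values, RPKM densities, whole-number counts and a readthrough ratio for each transcript. The listed transcripts had a CDS density of 1 RPKM or more and 18 nt or more before the next in-frame stop. Each deposited RPM value was a whole multiple of 1 read within 0.01 (100% of values), and reads were recovered by division. The deposited CDS counts were 1 lower for 9080 transcripts of Untreated A, 283 of Untreated B and 72 of G418 A, so the recovered reads were used.

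CDS reads were tested with edgeR 4.0.16 (R 4.3.3) over 8812 transcripts, with library sizes as the totals behind RPM and the lone G418 library assumed to vary like the untreated ones. The prior degrees of freedom were infinite, so a transcript's own spread between the untreated libraries did not enter its p. Each SE was derived from the test, as the absolute log2 change divided by the square root of the F statistic. TMM scaling, DESeq2 1.42.0, a minimum of 128 mean reads, the deposited counts and leaving out each untreated library were tried. The edgeR script was tested on simulated data. Sequences and coordinates came from GENCODE version 44. Every member was named, and of the other lists the genes that passed and all listed selenoproteins. The members and lists were chosen with earlier results of these data known. Primary alignments of multiply matching reads were kept, so members with processed pseudogenes may share reads.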

Additional observations from a re-analysis of the deposited data

How the results depend on the processing

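No paired analysis was possible because the groups share only the letter A. The number of members called higher was 2, 1 with TMM scaling, 0 with DESeq2 and 1 with the minimum of CDS reads, which left 5 members tested. SELENOT had a log2 change of 0.78 (adjusted p 0.0739) with TMM scaling and 0.77 (0.486) with DESeq2. The count of genes called higher in the thioredoxin and glutathione system went from 1 (GLRX5) to 0 with TMM scaling and with DESeq2. DESeq2 gave no adjusted p for SELENOW (unadjusted p 0.0142) or GLRX5. Over all transcripts TMM scaling called 100 higher and 33 lower, and DESeq2 8 and 12, against 187 and 31, and TMM scaling moved the median log2 change of all transcripts from 0.0965 to 0.000794. The members' median log2 change ran from 0.43 to 0.80 when each untreated library was left out. SELENOH had a negative log2 change with every test tried and of 0.02 over Untreated A alone. The cause of these shifts was not tested.

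The pooled readthrough of Untreated B was 1.85% as the median of the deposited scores, 14.8% without SELENOF and 1.18% without SEPHS2, and that of G418 A was 33.7% without SELENOF. The fold ran from 3.35 to 10.5 when an untreated library was left out, and was 16.3 for the median and 18.1 without SEPHS2. The pooled 3′UTR occupancy of Untreated B was 0.244% as the median of the deposited values, 0.201% past the next in-frame stop and 0.258% without SEPHS2. That of G418 A was 0.453% past the next in-frame stop. The fold was 3.71, and 6.90, 2.10 and 5.74 under the same 3 alternatives. No member had more than 41 readthrough reads in a library, which limits the precision of single values.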

Other observations

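Readthrough at the final stop of the other selenoproteins was also counted. SELENOO had 0 (Untreated A), 1 (Untreated B) and 7 (G418 A) reads, and its RRTS was 0%, 13.1% and 113% (in G418 A, exact 95% Poisson interval 45.3 to 232%). SELENOM had 0, 5 and 9 reads, and its RRTS was 0%, 35.0% and 33.6%, so G418 A was not above Untreated B. MSRB1 had 1, 0 and 10 reads (1.29%, 0% and 10.4%). SELENON, SELENOP and TXNRD2 had no reads in the untreated libraries and 8, 3 and 4 with G418, where the RRTS was 43.1% for SELENON, 18.4% for SELENOP and 6.04% for TXNRD2. GPX3 had none in any library, although its CDS density would have given 33.5, 91.3 and 90.5 reads at an RRTS of 100%. These counts were not tested between conditions. The CDS density of these genes also includes ribosomes before the selenocysteine codon, and in SELENOO and TXNRD2 only those. In MSRB1, 16.0% of the counted nucleotides lay after that codon. Their RRTS is therefore limited in the same way as that of the members. SELENOM and TXNRD2 have no in-frame stop in the 3′UTR. Their RRTS therefore covered 181 nt (SELENOM) and 339 nt (TXNRD2) of the 3′UTR instead of a stretch to such a stop.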
